A study of Mus musculus with 84 samples.

Results

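Promoters of adipocytes that carried trimethylated lysine 4 of histone H3 (H3K4me3) without acetylated lysine 27 (H3K27ac) in chow-fed control mice were followed through obesity and weight loss (WL). For every protein-coding gene the promoter comprised all bases up to 2000 bp upstream or downstream of an annotated start site, with 1 value per gene, and a peak touching it by 1 bp or more counted as a mark. The members were promoters with H3K4me3 in at least 9 of 10 control libraries, H3K27ac in at most 1 of 9 and trimethylated lysine 27 (H3K27me3) in at most 2 of 10. Of 21851 protein-coding promoters, 554 (2.54%) met all 3 conditions. They were 5.47% of the 10136 promoters that met the conditions on H3K4me3 and H3K27me3, whereas 5434 of those had H3K27ac in 8 or 9 of the 9 controls.

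H3K4me3 is deposited at start sites by the SET1 and MLL complexes, most readily at promoters rich in CpG dinucleotides, and it helps to recruit the general transcription machinery. H3K27ac is written by the acetyltransferases p300 and CBP and accompanies active transcription, and H3K27me3, the product of polycomb complex PRC2, occupies the same lysine and cannot coexist with acetylation on one histone tail. A start site with H3K4me3 alone is therefore usually read as accessible and competent, yet weakly used. In fat tissue such marks have been followed because mature adipocytes do not divide and live long.

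Libraries were made by CUT&Tag, in which an antibody to a histone mark guides a transposase that cuts and tags the DNA around it. All mice, controls included, were AdipoERCre x NuTRAP on a background labelled C576BL6 and received tamoxifen when young, so that a tamoxifen-inducible Cre under the adiponectin promoter labelled adipocyte nuclei, which were pulled down from epididymal fat. Chow-fed controls were 18 (C), 26 (CC_s), 31 (CC_l) and 39 (CCC) weeks old. High-fat diet lasted 12 weeks in H mice, taken at 18 weeks of age, and also in HC mice, aged 26 weeks after another 8 weeks on chow. It lasted 25 weeks in HH mice, taken at 31 weeks of age, and in HHC mice, aged 39 weeks after another 8 weeks on chow. C, H, CC_s and HC formed the 12-week cohort and CC_l, HH, CCC and HHC the 25-week cohort, named by the length of the high-fat diet. There were 2 or 3 libraries per mark and group, each from 1 animal, and animal 1 of a group gave the libraries numbered 1 for every mark.

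The 84 libraries held between 11249 and 46397 peaks. The number of peaks varied within groups as well as between them, and it is given beside the results it moved with. A promoter without a peak is one whose signal did not reach the calling threshold in that library, which is not proof that the mark was missing. The study states a minimum number of reads per library, and the reads behind each library were not used here. In the controls, 20 of 20 adipocyte marker genes had H3K27ac in every library, and in the diet libraries 14 to 20 of 20 did. Of the 9 lists of cell type markers examined, for adipocytes and 8 other cell types of fat tissue or its surroundings, no gene was a member.

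The promoters of 6 genes show what the set contains at the level of sequence. Each is a stretch of 300 bases spanning a RefSeq start site, which lies 50 bases before its end (build GRCm38.p6), given 5′ to 3′ on the strand of the gene. The first 4 belong to genes of cell division, which made up 20 members. Capitals mark each CCAAT (or ATTGG on the other strand), the box bound by NF-Y, and each TTTGAA (or TTCAAA), the cell cycle homology region (CHR) element bound by the DREAM and MuvB complexes, both of which are known from promoters of mitotic genes. The promoters of Zfp280d, a zinc finger gene, and Tada2a, an adaptor subunit of histone acetyltransferase complexes, hold none of these letters and are shown for contrast, Zfp280d because it had H3K27ac in every H library and Tada2a because it had H3K27ac in no library at all.
Coordinates in this order are chr2:69206164-69206463 (minus strand), chr2:118597961-118598260 (plus), chr13:100786437-100786736 (minus), chr11:99024140-99024439 (minus), chr9:72274638-72274937 (plus) and chr11:84129519-84129818 (minus).
Spc25: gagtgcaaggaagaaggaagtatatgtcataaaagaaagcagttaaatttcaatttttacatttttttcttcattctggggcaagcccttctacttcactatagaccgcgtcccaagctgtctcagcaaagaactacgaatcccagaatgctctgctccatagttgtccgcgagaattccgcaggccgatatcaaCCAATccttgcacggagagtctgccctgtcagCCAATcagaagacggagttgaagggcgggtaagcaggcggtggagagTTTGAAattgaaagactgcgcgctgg
Bub1b: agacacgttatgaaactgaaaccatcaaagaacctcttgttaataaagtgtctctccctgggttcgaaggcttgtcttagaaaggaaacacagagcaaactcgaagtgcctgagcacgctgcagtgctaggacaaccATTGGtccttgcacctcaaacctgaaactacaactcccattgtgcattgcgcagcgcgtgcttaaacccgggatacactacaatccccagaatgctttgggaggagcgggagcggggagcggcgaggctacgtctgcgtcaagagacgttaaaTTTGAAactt
Ccnb1: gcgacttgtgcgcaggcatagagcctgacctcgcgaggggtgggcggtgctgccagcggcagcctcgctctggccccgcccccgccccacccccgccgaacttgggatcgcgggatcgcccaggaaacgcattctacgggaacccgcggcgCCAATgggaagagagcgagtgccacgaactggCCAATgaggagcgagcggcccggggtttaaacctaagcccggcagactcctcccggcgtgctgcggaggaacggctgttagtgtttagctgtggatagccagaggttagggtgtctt
Top2a: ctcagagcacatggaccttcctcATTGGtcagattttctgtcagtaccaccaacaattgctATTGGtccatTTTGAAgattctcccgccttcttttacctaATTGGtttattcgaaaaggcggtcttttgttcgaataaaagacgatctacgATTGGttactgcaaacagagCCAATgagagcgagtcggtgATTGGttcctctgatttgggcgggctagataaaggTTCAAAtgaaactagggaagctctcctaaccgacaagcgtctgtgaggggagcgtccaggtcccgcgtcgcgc
Zfp280d: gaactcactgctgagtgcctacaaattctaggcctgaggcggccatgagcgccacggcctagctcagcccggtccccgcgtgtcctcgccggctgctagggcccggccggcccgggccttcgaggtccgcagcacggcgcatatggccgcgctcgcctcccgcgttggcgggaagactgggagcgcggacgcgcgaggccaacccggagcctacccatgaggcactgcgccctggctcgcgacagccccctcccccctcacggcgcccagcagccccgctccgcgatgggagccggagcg
Tada2a: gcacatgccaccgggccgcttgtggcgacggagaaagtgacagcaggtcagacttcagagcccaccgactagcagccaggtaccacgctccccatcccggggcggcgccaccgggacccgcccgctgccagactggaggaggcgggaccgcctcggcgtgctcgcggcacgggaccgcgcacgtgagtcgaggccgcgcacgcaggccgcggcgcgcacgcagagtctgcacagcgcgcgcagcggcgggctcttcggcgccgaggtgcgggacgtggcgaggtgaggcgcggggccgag

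A peak of H3K4me3 lay over the printed stretch in 21 of 21 libraries at Spc25, Ccnb1, Top2a and Zfp280d, in 20 of 21 at Tada2a and in 17 of 21 at Bub1b. H3K27ac lay over it in 12 of 21 libraries at Spc25, in 9 at Zfp280d, in 8 at Top2a, in 7 at Bub1b and Ccnb1, and in 0 at Tada2a. In the Spc25 stretch the CCAAT boxes began 55 and 23 bases before the start site and the CHR letters at base 25 after it. RefSeq promoters were available for 435 of 553 member symbols (524 stretches) and for 15 of the 20 members of cell division. Of the latter, 12 held CCAAT or ATTGG (80%), against 40.6% of the 524 member stretches and 37.8% of all 20143 protein-coding stretches. TTTGAA or TTCAAA was in 8 of the 15 (53.3%), against 16.8% and 15.2%. The letters TTTCCCGC or TTTGGCGC on either strand, which E2F factors bind, were in 6 (40%), against 3.44% and 2.09%. A match describes the letters and not an occupied site. Over all cell division genes, members or not, the shares were 68.6%, 45.1% and 20.6% of 102 stretches, so these letters were common to the gene group and not peculiar to its members.

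The members as a whole resembled other H3K4me3 promoters in base composition. Within 500 bases on either side of the start sites, the median GC content was 59.3% at the members, 58.5% at promoters with H3K27ac in 8 or 9 controls and 54.9% at all promoters. The median ratio of observed to expected CpG was 0.741, 0.715 and 0.539, and 73.5%, 71.1% and 43.9% of the promoters reached 0.6, a usual mark of CpG islands. TATAAA on either strand was in 6.11% of the member stretches, 6.72% of those with H3K27ac in 8 or 9 controls and 12.1% of all.

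They differed in the size of their H3K4me3 peaks and in their distance to H3K27ac. In the controls the median H3K4me3 peak at a member was 1690 bp wide, against 2922 bp at promoters with H3K27ac in 8 or 9 controls, and its total signal stood at the 60.4th percentile of the peaks of its own library against the 89.5th. The nearest control H3K27ac peak was 38300 bp away at the median member, and 32 members (5.78%) had one within 5000 bp. In all, 76 members (13.7%) shared their window with another protein-coding gene, compared with 31.3% of the promoters with H3K27ac in 8 or 9 controls and 16.96% of all promoters. The X chromosome held 22 members (3.97%, against 4.34% of all promoters). These are descriptions, because distance to H3K27ac follows from how the members were chosen.

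The thresholds divided a continuum. H3K27ac was in 0 of 9 controls at 198 members and in 1 of 9 at 356, and another 402 promoters met the other conditions and had it in 2 of 9. For 197 of the 356 the single control peak was in CC_l replicate 1, for 112 in CCC replicate 1 and for 29 in CC_l replicate 2. H3K4me3 was in 10 of 10 controls at 301 members and in 9 at 253, with 313 promoters just outside at 8 of 10. H3K27me3 was in none of the controls at 418 members, in 1 at 90 and in 2 at 46, with 22 promoters just outside at 3. The mean share with H3K27ac in HHC libraries was 35.5% ± 12.7 (SD, n = 3) for the members at 0 of 9, 57.8% ± 6.61 for those at 1 of 9 and 69.6% ± 1.01 for the promoters just outside at 2 of 9.

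**Figure D1:**
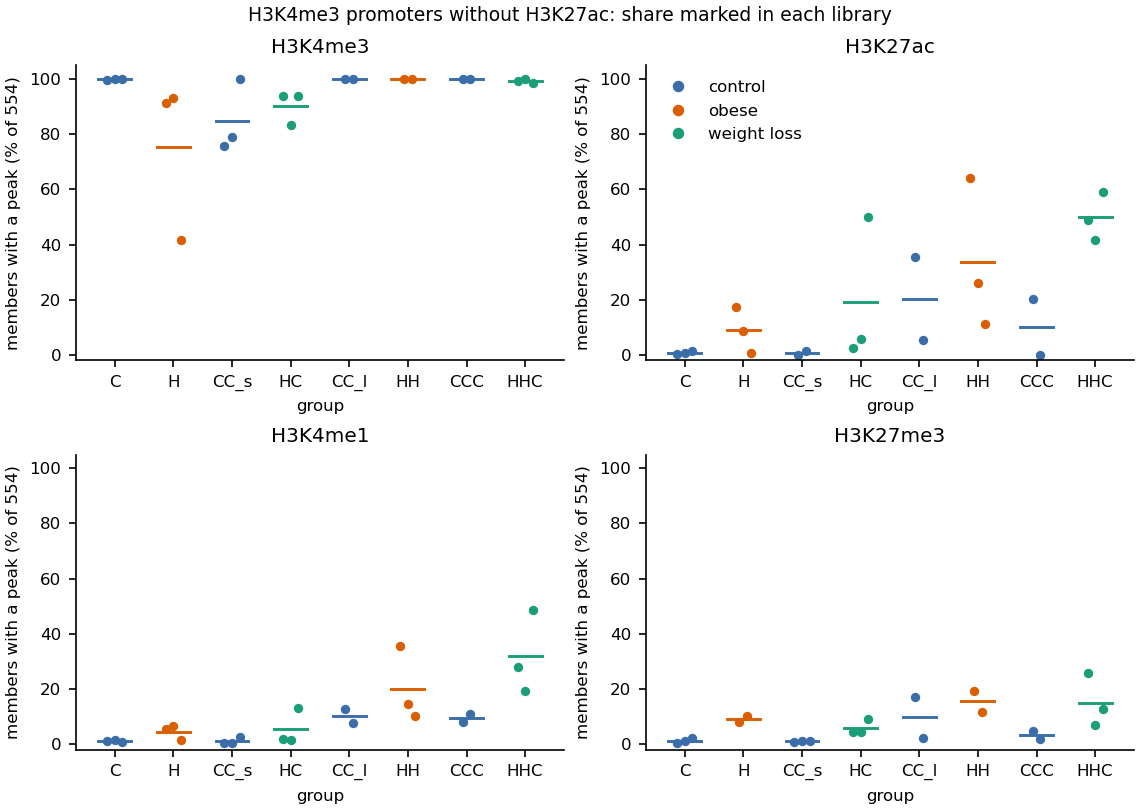
Share of the 554 members with a peak in each library (points) and the mean of each group (lines) for H3K4me3, H3K27ac, H3K4me1 and H3K27me3, in percent, with control groups in blue, obese groups in orange and weight-loss groups in green. H3K4me3 stayed near 100% in the 25-week cohort and fell to 41.5% in 1 H library, whereas H3K27ac ran from 0.722% to 64.1% in the libraries of the diet groups.

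H3K27ac appeared at many members in single diet libraries, and at many in every HHC library. In the controls, where the rule kept it low, it was at between 0 and 7 members in each C and CC_s library, at 197 and 29 members in the CC_l libraries, and at 112 and 0 in the CCC libraries. In the obese groups it was at 96, 48 and 4 members in the H libraries and at 355, 145 and 62 in the HH libraries. After weight loss it was at 13, 31 and 276 in the HC libraries and at 271, 230 and 327 in the HHC libraries. All 3 HHC libraries were above every control library, while the HH and HC libraries spread over most of the range and overlapped the controls of the 25-week cohort.

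As shares, the members had H3K27ac at 8.90% ± 8.31 (SD, n = 3) in the H group, 33.8% ± 27.3 (n = 3) in the HH group, 19.3% ± 26.5 (n = 3) in the HC group and 49.8% ± 8.79 (n = 3) in the HHC group. Because the rule capped the control values, a comparison of these shares with controls is no test. The diet groups were not used by the rule, and between them WL minus obese was 13.2 percentage points averaged over the cohorts (10.3 for HC minus H, and more for HHC minus HH). This did not exceed the spread between libraries (exact permutation test within cohorts, two-sided, p = 0.255, adjusted p = 0.437 over 12 tests, smallest possible p = 0.005). Leaving out 1 library at a time moved the difference between 5.54 and 20.7 points. HC mice were 26 weeks old against 18 in H, and HHC mice 39 against 31 in HH. Weight loss and age therefore cannot be told apart in any comparison of HC with H or HHC with HH, here or below.

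The share of members with H3K27ac moved with the number of H3K27ac peaks called in a library. The H libraries, at 17.3%, 8.66% and 0.722%, held 26649, 18227 and 12174 peaks. The HC libraries held 15158, 22078 and 37143 peaks, and the last of these had 49.8% of the members marked. HH replicate 1, with 38713 peaks, had 64.1% of the members marked, whereas HH replicates 2 and 3, with 33205 and 29246 peaks, had 26.2% and 11.2%. The HHC libraries held 35089, 35997 and 41989 peaks and had 48.9%, 41.5% and 59.0%. Among the controls, CC_l replicate 1 had 37283 peaks and 35.6% of members marked, and CCC replicate 1 had 32907 peaks and 20.2%. The diet libraries nearest to these in number were HC replicate 3 and HH replicate 2, which had higher shares, but the rule had lowered the control values.

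At an equal number of peaks, the 12174 with the largest total signal in each library, few members kept H3K27ac. They were then marked at between 0% and 0.722% in the 9 control libraries. The H libraries had 1.99%, 3.97% and 0.722%, and the HC libraries 0.542%, 0.722% and 10.1%. The HH libraries had 15.2%, 1.62% and 0.542%, and the HHC libraries 7.22%, 1.62% and 11.4%. Most acetylation of the members thus lay in the weaker peaks of a library, and HC replicate 3, HH replicate 1 and HHC replicates 1 and 3 kept the largest shares. For comparison, the same cap left 14.6% to 36.5% of all promoters marked.

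**Figure D2:**
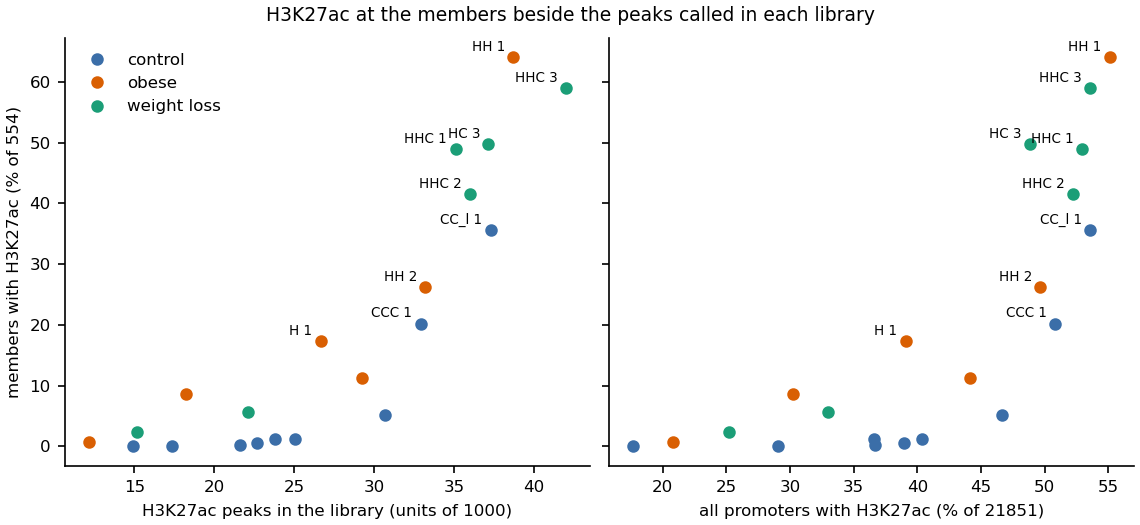
Share of the 554 members with H3K27ac in each of the 21 H3K27ac libraries against the number of H3K27ac peaks in the library (left) and against the percent of all 21851 promoters with H3K27ac (right), with libraries above 15% named. Libraries with up to 23789 peaks had at most 8.66% of members marked, and the 6 libraries with 35089 to 41989 peaks had 35.6% to 64.1%.

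Markers of some other cell types were acetylated more often in many of these libraries. Of 20 macrophage markers, 3 to 10 had H3K27ac in the control libraries, 11, 11 and 2 in the H libraries, 13, 15 and 9 in the HH libraries, 3, 2 and 14 in the HC libraries, and 18, 8 and 10 in the HHC libraries. Single genes of this list differed. Adgre1 had it in 0 controls and 3 of 12 diet libraries, and Csf1r in 1 control and 7 diet libraries. Tyrobp and C1qc each had it in 0 controls and 8 diet libraries, and Cd163 and Itgam in none of either. Mertk and Lpl, the latter also on the adipocyte list, had it in all 9 controls and all 12 diet libraries. Of 14 endothelial markers, 0 to 6 had it in control libraries, 7, 3 and 1 in H libraries, 12, 6 and 3 in HH libraries, 0, 0 and 10 in HC libraries, and 5, 5 and 8 in HHC libraries. Of 17 lymphocyte markers, 0 to 2 had it in controls, 0 to 6 in H, HH and HC libraries, and 16, 2 and 7 in HHC libraries. Of 14 progenitor markers, 3 to 9 had it in controls and 1 to 10 in diet libraries. Of 10 mural markers, 5, 5 and 6 had it in the HHC libraries and 2 to 5 in all other libraries. Of 11 mesothelial markers, 3 and 2 had it in HHC replicates 2 and 3 and 0 or 1 in every other library. Epithelial (0 to 2 of 10) and neuron markers (0 or 1 of 11) rarely had it in any library. The lists did not all follow the members in the same way. HH replicate 2 had more acetylated macrophage markers than HH replicate 1, and acetylated lymphocyte markers were most numerous in HHC replicate 1. In each diet group the library with the most acetylated members also had the most acetylated endothelial markers. Adipocyte markers with H3K27ac numbered 15, 14 and 15 of 20 in HC replicate 3, HH replicate 1 and HHC replicate 3, which were the libraries with the highest share of acetylated members in their groups, whereas the highest H library, replicate 1, had 18 and H replicate 2 had 14. The part of other cells in the result was not tested, and in nuclei pooled from a tissue a mark in few cells cannot be told apart from a weak mark in many.

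To measure the same kind of promoter with controls that the choice did not use, sets were chosen from the controls of 1 cohort alone and followed in the other. The 12-week controls gave 1185 promoters, of which 535 were members, and the 25-week controls gave 494, of which 205 were members. The set of 494, followed in the 12-week cohort, had H3K27ac at 1.08% ± 0.651 (SD, n = 3) in C and 5.06% ± 4.56 (n = 3) in H, and at 1.21% ± 1.15 (n = 2) in CC_s and 12.6% ± 18.3 (n = 3) in HC. The set of 1185, followed in the 25-week cohort, had it at 50.4% ± 21.4 (n = 2) in CC_l and 49.2% ± 26.0 (n = 3) in HH, and at 29.4% ± 40.3 (n = 2) in CCC and 64.0% ± 4.33 (n = 3) in HHC. The older controls that had no part in the choice already had H3K27ac at many of these promoters, with 65.6% and 35.3% in the CC_l libraries and 57.9% and 0.928% in the CCC libraries.

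Obese minus control was 1.36 points over the cohorts (exact permutation test, two-sided, p = 0.88) and did not exceed the spread. WL minus control was 22.9 points (11.3 for HC minus CC_s and 34.6 for HHC minus CCC), with an exact permutation p = 0.04, which did not hold after adjustment over the 12 tests (adjusted p = 0.16). It rested in large part on CCC replicate 3, whose list held 14917 H3K27ac peaks. Without that library the difference was 8.71 points, and without CCC replicate 1 it was 37.2 points. Either omission left 1 CCC library and a smallest possible p of 0.05, so that no p below 0.05 could be reached. When each library kept 12174 peaks the difference was 6.73 points (p = 0.06 by the same exact permutation).

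**Figure D3:**
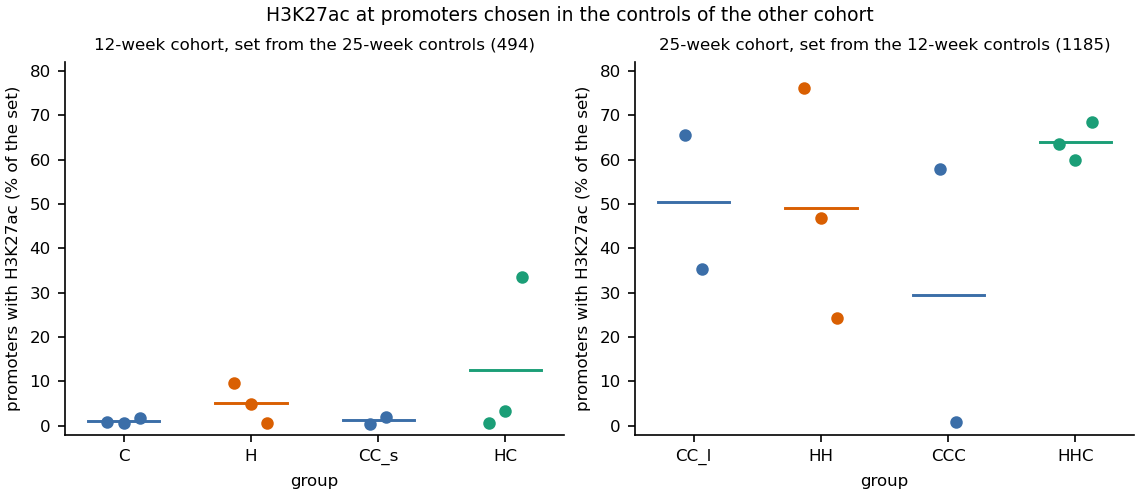
Percent of promoters with H3K27ac in each library (points) and group means (lines), left for 494 promoters chosen in the 25-week controls and followed in the 12-week cohort, and right for 1185 promoters chosen in the 12-week controls and followed in the 25-week cohort. The HHC libraries lie between 59.9% and 68.5%, all above both CCC libraries (57.9% and 0.928%), while 1 CC_l library lies among them at 65.6%.

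Some members changed from no library of a group to every library of another. H3K27ac was in every HHC library and no CCC library at 88 members (15.9% of members, against 2.32% of all promoters). It was in every HH library and no CC_l library at 20 (3.61%, against 0.448% of all promoters). In every H library and no C library it was at 1, Zfp280d (0.181%, against 0.146%). In every HC library and no CC_s library it was at 1, Phf20l1 (0.181%, against 0.297%). The opposite, every control library and no diet library, was met by no member in these comparisons (1.94% of all promoters for H against C, 0.403% for HH against CC_l, 0.499% for HC against CC_s and 0.0686% for HHC against CCC). Nothing is read from these counts, since the rule kept controls low. Among those that met it in both HHC and HH were Gch1, the first enzyme of tetrahydrobiopterin synthesis, and Bcor, a corepressor of a polycomb complex, and among those that met it in HHC were Soat1, which esterifies cholesterol, and Rictor, a subunit of the kinase complex mTORC2. They also depended on weak peaks, and at equal numbers of peaks HHC against CCC left 1 member and HH against CC_l left 1. Between diet groups, which the rule did not use, 7 members had H3K27ac in every HHC library and no HH library (1.26% of members, against 0.215% of all promoters), and the reverse held at 1, Agrn (0.181%, against 0.0458%). The 7 were Tor1b, Unc119b, Gpc2, Stag3, Zbtb39, Dcakd and Xxylt1. Gpc2, a cell surface glypican, and Stag3, a cohesin subunit of meiosis, have overlapping windows and count as 1 region. Agrn, which encodes the basement membrane protein agrin, shares its window with Isg15. No member differed this way between HC and H in either direction (0.334% and 0.0458% of all promoters).

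H3K27ac in every library of a group was reached at 36 members in HH (6.498% of members, against 40.2% of all promoters), 120 in HHC (21.7%, against 44.6%), 2 in H (0.361%, against 16.9%) and 1 in HC (0.181%, against 21.1%). Of the HH and HHC members 24 were shared, which is 66.7% of the first and 20% of the second. Across the 12 diet libraries, 55 members never had H3K27ac, 62 had it in 1 library, 104 in 2 and 99 in 3, while 103 had it in at least 6, 20 in at least 8 and none in all 12. Of all promoters, 35.8% never had it in these libraries, 46.7% had it in at least 6, 38.3% in at least 8 and 13.4% in all 12.

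The promoter acetylated in most diet libraries was that of Spc25, a subunit of the NDC80 complex that ties kinetochores to spindle microtubules (chr2:69193895-69206194, minus strand). It had H3K27ac in all H, HH and HHC libraries and in 2 of 3 HC libraries, and in 1 of 3 C libraries but in no CC_s, CC_l or CCC library. Its H3K4me3 was present in 21 of 21 libraries. Guf1, a GTPase of mitochondrial translation, Tmem160 and Zfp280d each had H3K27ac in 10 of 12 diet libraries and 1 of 9 controls. Guf1 and Tmem160 were each acetylated in every HH and HHC library and in 2 of 3 H and 2 of 3 HC libraries. Zfp280d reached 3 of 3 in H and HHC, and 2 of 3 in HC and HH.

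Exoc6, a subunit of the exocyst that tethers secretory vesicles, was the member among these with H3K27ac in no control at all, and it had H3K27ac in 9 diet libraries (every HH and HHC library, 2 of H and 1 of HC). Ehd4, an ATPase of endocytic recycling, Carnmt1, which methylates carnosine, D8Ertd738e and Fbxw4, a substrate adaptor of ubiquitin ligases, also had it in 9 diet libraries. Ier5l and Tifa, an adaptor of TRAF6 in NF-κB signalling, had it in 8. All of these kept H3K4me3 in at least 10 of 11 diet libraries. They are the members with the most acetylated diet libraries by choice, so their counts are a description.

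At the other end were 34 members with H3K27ac in 0 of 9 controls and 0 of 12 diet libraries. The strongest of them by H3K4me3 was the window shared by Diablo, a mitochondrial protein released in apoptosis, and Gm49027, with its control peak at percentile 66.2 of its libraries, followed by Tiam2, an activator of the GTPase Rac, at percentile 65.2, and Tada2a at percentile 63.4. Fjx1 and Vangl1, a planar cell polarity protein, were at percentiles 63.2 and 62.8. Tada2a had H3K4me3 in 10 of 10 controls and 10 of 11 diet libraries, and neither H3K27me3 nor H3K4me1 in any library. Tiam2 had H3K27me3 in 7 of 10 diet libraries and 2 of 10 controls.

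H3K4me3 was found at nearly all members throughout the 25-week cohort and at fewer in most libraries of H, HC and CC_s. It was at all 554 members in both HH libraries, and at 551, 554 and 547 in the HHC libraries, beside all 554 in each CC_l and CCC library. In the 12-week cohort it was at 506, 515 and 230 members in H and at 520, 462 and 520 in HC, against 553, 554 and 554 in C and 419, 437 and 554 in CC_s. The lowest of these, H replicate 3, had 11249 H3K4me3 peaks, the fewest of all libraries, and 41.7% of all promoters marked against 54.9% and 55.4% in the other H libraries. WL minus obese was 7.25 points (exact permutation test, two-sided, p = 0.58, adjusted p = 0.696), made up of 15.1 points for HC minus H and -0.602 for HHC minus HH. Without H replicate 3 it was -1.19 points. With 11249 peaks kept in each library, H3K4me3 was at 45.1% ± 4.54 (SD, n = 3) of the members in H and 65.9% ± 0.521 (n = 3) in C. The other control groups were lower than C, at 54.2% ± 14.6 (n = 3) in CC_s, 51.99% ± 2.81 (n = 2) in CC_l and 46.03% ± 6.64 (n = 2) in CCC. HH, HC and HHC were at 51.7%, 49.6% and 48.98%, so HH was close to CC_l. These values are a description, since the rule used the controls, and no loss in obesity is read from them. Over the 11 diet libraries, 408 members had H3K4me3 in at least 10, as did 48.3% of all promoters. In all 11 it was found at 196 members (35.4% of members, against 40.7% of all promoters).

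In the sets chosen in the other cohort, obese minus control for H3K4me3 was -19.2 points (exact permutation p = 0.10, adjusted p = 0.24). The set of 494 had H3K4me3 at 52.0% ± 29.9 (SD, n = 3) in H and 90.5% ± 4.82 (n = 3) in C, whereas in the 25-week cohort the set was marked nearly throughout (99.96% in CC_l and 100% in HH), so that a loss could hardly show there. Relative to the share of all promoters marked in the same library, an alternative chosen after seeing the data, the difference was -15.6 points (exact permutation p = 0.0167). WL minus control was 8.75 points (exact permutation p = 0.39).

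H3K4me3 was absent from every H library and present in every C library at 12 members (1.71% of all promoters), from which nothing is read because C was used by the rule. No other contrast with controls had such a member in either direction, while 0.00458% of all promoters gained H3K4me3 this way in H, 0.32% gained and 0.0183% lost it in HC, 1.32% gained and 0.481% lost it in HH, and 1.39% gained and 0.375% lost it in HHC. Between diet groups, 4 members had H3K4me3 in every HC library and no H library (0.722% of members, 0.16% of all promoters) and none the reverse (0.0137% of all promoters). These were Asphd1 and Sez6l2, which share a window, Pomgnt2, a glycosyltransferase of α-dystroglycan, and Galk1, the galactokinase that starts galactose breakdown. No member differed between HHC and HH (0.439% and 0.215% of all promoters in the 2 directions). Among the members with H3K4me3 in few diet libraries were Mogat2, a monoacylglycerol acyltransferase of triglyceride synthesis, C2cd4a, Spata32 and 5730507C01Rik (6 of 11 each), and Rgs7, a regulator of G protein signalling (7 of 11). Each of these had H3K4me3 in 9 of 10 controls, and the H3K4me3 peak of Mogat2 was narrow, at 966 bp.

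H3K4me1, which marks enhancers and the flanks of active promoters, was not named in the rule, but the control libraries of H3K27ac and H3K4me1 came from the same animals, so that a comparison of the members with controls is not independent of it. It was rare at the members in the young controls, at 7, 8 and 4 members in the C libraries and 2, 2 and 15 in CC_s, and commoner in the older ones, at 70 and 43 in CC_l and 45 and 60 in CCC. The H libraries had it at 31, 37 and 8 members and the HH libraries at 197, 80 and 57. After weight loss it was at 11, 8 and 73 members in the HC libraries and at 154, 106 and 269 in the HHC libraries. The H3K4me1 libraries held 14486 to 40682 peaks, with the most in HHC replicate 3. All HHC libraries were above both CCC libraries, whereas HH replicate 3 was below CC_l replicate 1. Of all promoters, 11.1% had H3K4me1 in C and 10.6% in CC_s, against 31.3% in CC_l and 34.7% in CCC. With 14486 peaks kept in each library, the members were at 0.602% in C, 0.241% in CC_s, 1.17% in CC_l and 1.71% in CCC. Between young and older controls, age, cohort and the number of peaks cannot be told apart.

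HHC libraries had H3K4me1 at 31.8% ± 15.1 of the members (SD, n = 3) and CCC libraries at 9.48% ± 1.91 (n = 2), and HC libraries had it at 5.54% ± 6.62 (n = 3) against 1.14% ± 1.35 (n = 3) in CC_s. WL minus control was 13.4 points over the cohorts. Obese minus control was 6.66 points, with 4.57% ± 2.76 (n = 3) in H against 1.14% ± 0.376 (n = 3) in C and 20.1% ± 13.6 (n = 3) in HH against 10.2% ± 3.45 (n = 2) in CC_l. WL minus obese, between groups the rule did not use, was 6.35 points (exact permutation p = 0.36, adjusted p = 0.52). Because H3K4me1 controls were not independent of the rule, the sets chosen in the other cohort were followed as well, an alternative chosen after seeing the data and outside the 12 tests. There WL minus control was 13.6 points (exact permutation test, two-sided, p = 0.02, unadjusted), with 39.4% ± 15.1 (SD, n = 3) in HHC against 16.03% ± 3.22 (n = 2) in CCC and 4.39% ± 4.67 (n = 3) in HC against 0.607% ± 0.882 (n = 3) in CC_s. Obese minus control was 7.74 points (exact permutation p = 0.05, unadjusted). H3K4me1 was also commoner at promoters in general, with 44.9% of all promoters in HHC and 34.7% in CCC.

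Members with H3K4me1 in every HHC library and no CCC library numbered 33, or 5.96% of members, against 3.98% of all promoters and 6.07% of the 10136 promoters with H3K4me3. The share among members was thus close to that among H3K4me3 promoters at large. For HH against CC_l there were 11 (1.99% of members and 2.0% of all promoters), and for H against C and HC against CC_s 1 each (0.59% and 0.215% of all promoters), in both cases B4galt4, a galactosyltransferase. In the reverse direction there were 4 for HH against CC_l, namely Rev1, Smad9, Strn4 and Ankrd29 (0.705% of all promoters), 1 for HHC against CCC, Purb (0.494%), and none for H against C (0.32%) or HC against CC_s (0.101%). B4galt4 had H3K4me1 in 12 of 12 diet libraries, 0 of 3 C, 0 of 3 CC_s, 1 of 2 CC_l and 2 of 2 CCC libraries. Unc119b, a carrier of lipid-modified proteins to cilia, had it in 9 diet libraries and no control, Nos1ap, an adaptor of neuronal nitric oxide synthase, in 8 and no control, and B4galt5, which makes lactosylceramide, in 7 and no control. Between HHC and HH, 8 members had H3K4me1 in every HHC library and no HH library (1.44% of members, 0.773% of all promoters) and none the reverse (0.0366% of all). None had it in every HC library and no H library (0.101% of all), and 1, Itsn2, had it in every H library and no HC library (0.181% of members, 0.197% of all).

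In 10 of 12 diet libraries the share with H3K4me1 was higher among acetylated members than among the others, and in H replicate 3 and HC replicate 2, with 4 and 31 acetylated members, none of these had H3K4me1. In HH replicate 1 it was at 45.1% of the members with H3K27ac and 18.6% of those without, in HHC replicate 1 at 44.3% and 12.0%, and in HHC replicate 2 at 29.1% and 12.0%. HC replicate 3 had 18.8% and 7.55%. In the controls with the most acetylated members the values were 11.7% and 13.2% for CC_l replicate 1 and 14.3% and 6.56% for CCC replicate 1. The same shares over all promoters were not computed, so nothing particular to the members is read from these values. HH replicate 1, HHC replicate 3 and HC replicate 3 had the highest share of members in their group for both marks, and the libraries of both marks with the same number came from the same animal.

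H3K27me3 was low by the rule in controls, at 2 to 12 members in each C and CC_s library, 95 and 13 in CC_l, and 26 and 11 in CCC. It was at 44 and 56 members in the H libraries and 107 and 65 in the HH libraries, and at 25, 24 and 51 in the HC libraries and 142, 38 and 70 in the HHC libraries. WL minus obese was -1.74 points (exact permutation p = 0.72, adjusted p = 0.785). In the sets chosen in the other cohort, WL minus control was 7.98 points (exact permutation test, two-sided, p = 0.02), 7.02 for HC minus CC_s and 8.95 for HHC minus CCC, and it did not hold after adjustment (adjusted p = 0.16). Obese minus control was 6.53 points (exact permutation p = 0.133). H3K27ac and H3K27me3 were both found at 44 members in HHC replicate 1, where 271 had H3K27ac and 142 had H3K27me3. Both were found at 22 in HHC replicate 3 (of 327 and 70), 18 in HH replicate 2 (of 145 and 107) and 13 in HHC replicate 2 (of 230 and 38). Each of the other libraries had both at 9 or fewer. The same share over all promoters was not computed, so nothing is read from these counts.

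Members with H3K27me3 in the most diet libraries were Rybp, a subunit of polycomb complex PRC1, Mogat2 and Igf2bp2, an RNA-binding protein that regulates mRNA stability and translation, at 9 of 10 each, and Smo, the signal transducer of the hedgehog pathway, at 8 of 10. In the controls they had it in 2, 2, 2 and 1 of 10. Rybp and Smo kept H3K4me3 in 11 of 11 diet libraries and Igf2bp2 in 10, so that both methylation marks were found at these promoters, and Mogat2 kept it in 6. Against controls, whose values the rule limited, H3K27me3 was in every diet library and no control library at 16 members for H against C (1.29% of all promoters), 12 for HH against CC_l (1.05%), 12 for HHC against CCC (1.37%) and none for HC against CC_s (0.165%). The reverse was met by 1, Racgap1, an organiser of the cytokinetic spindle, for HH against CC_l (0.943%), and by none for H against C (1.61%), HC against CC_s (0.828%) or HHC against CCC (0.732%). Between diet groups, H3K27me3 was in every H library and no HC library at 4 members, Xkr4, Rilpl1, Eml5 and Vstm4 (0.722% of members, 0.677% of all promoters), and none had the reverse (0.252% of all). It was in every HHC library and no HH library at Unc79 and Ppic, and the reverse at 5730507C01Rik and Cbx7 (0.361% of members in each direction, against 0.211% and 0.567% of all promoters).

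By gene family, genes of cell division stood out in number. Of 102 genes with symbols of this family, 20 were members (19.6%, against 2.54% of all genes), which is 23.3% of the 86 of them that met the conditions on H3K4me3 and H3K27me3, against 5.47% overall. They covered the cycle, with Cdc6 and Mcm10 for the licensing and start of replication, Gins3 for the replicative helicase, Ccne2 for entry into S phase, E2f7 for repression of S phase genes, Cdc25c and Ccnb1 for entry into mitosis, Top2a for untangling DNA, Spc25, Cenpf and Cenpm for the kinetochore, Bub1b and Aurkb for the spindle checkpoint and chromosome segregation, Tpx2 for spindle assembly, Esco2 for sister cohesion, and the kinesins Kif14, Kif18b and Kif22. Cenps and Cdca7 completed the list. The members were chosen by their marks and the family by symbol patterns, so the count is a description, given with its background and with no test.

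**Figure D4:**
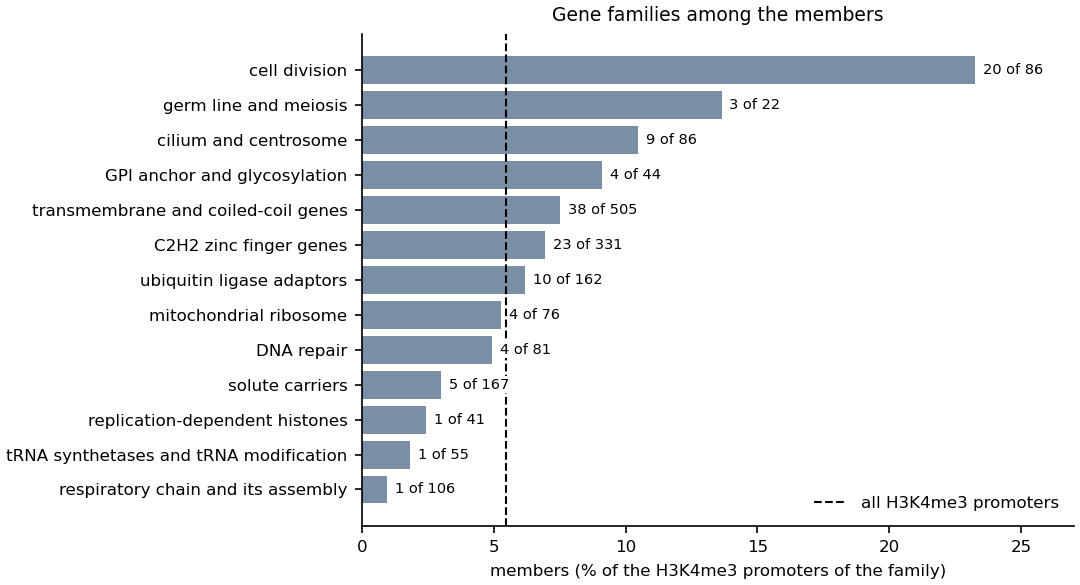
Members as a percent of the H3K4me3 promoters of each gene family, meaning promoters with H3K4me3 in at least 9 controls and H3K27me3 in at most 2, for families with at least 20 such promoters, with the number of members and of such promoters beside each bar and the value for all promoters, 5.47%, as a dashed line. Cell division stands at 23.3% (20 of 86) and the respiratory chain at 0.943% (1 of 106).

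In the diet libraries, H3K27ac at the cell division members varied between libraries as it did at the others. Its share was higher than at the other members in most of these libraries, which was not tested. Of the 20, H3K27ac was at 6, 3 and 1 in the H libraries and 15, 8 and 1 in the HH libraries, and at 1, 2 and 10 in the HC libraries and 10, 6 and 15 in the HHC libraries. In controls it was at 9 in CC_l replicate 1, at 3 in CCC replicate 1 and at 0 or 1 in the other libraries. The highest, HH replicate 1 and HHC replicate 3, stood at 75% of the 20, against 63.7% and 58.4% of the other members, and HC replicate 3 at 50% against 49.8%. In H replicates 1, 2 and 3 the shares were 30% against 16.9%, 15% against 8.43% and 5% against 0.562%. HH replicate 3 and HHC replicate 2 went the other way, with 5% against 11.4% and 30% against 41.9%. Bub1b and Ccnb1 had H3K27ac in 3 of 3 HHC and 2 of 3 HH libraries and in 1 control, and Top2a in 2 of 3 libraries each of H, HH and HC and in 1 of 3 of HHC. Tpx2 had it in no library.

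**Figure D5:**
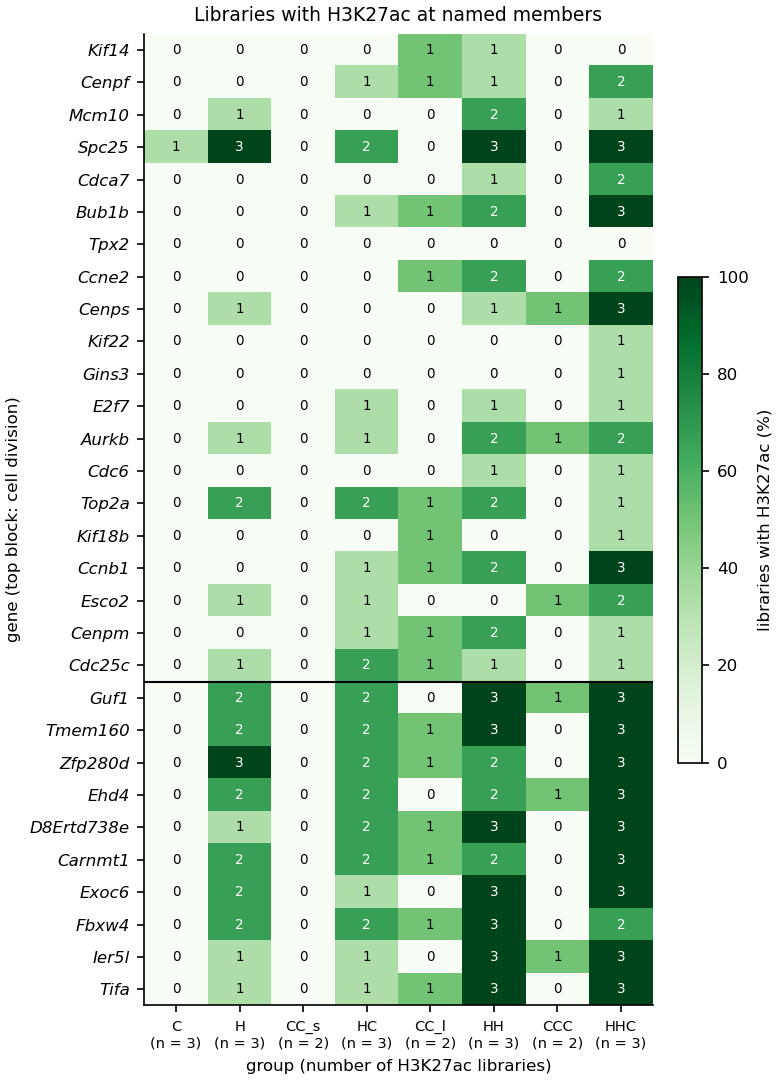
Number of H3K27ac libraries in which each promoter was marked, by group, for the 20 cell division members (above the line) and 10 other members with H3K27ac in many diet libraries, shaded by the percent of the libraries of the group. Spc25 was marked in 11 of 12 diet libraries and Tpx2 in none, and the lower block was chosen for its high counts.

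Other families came closer to the background of 5.47% of H3K4me3 promoters. Cilium and centrosome genes gave 9 members of 86 such promoters (10.5%), among them Bbs4, Bbs7, Ift22 and Ttc26, which build or serve cilia. Their H3K27ac averaged 18.5% in the H group, 40.7% in the HH group, 29.6% in the HC group and 70.4% in the HHC group. Over all members it averaged 8.90%, 33.8%, 19.3% and 49.8% in the same order. The family means rest on 9 genes, and the difference was not tested. C2H2 zinc finger genes gave 23 of 331 (6.95%), of which Zfp966, Zfp967, Zfp968, Zfp969 and Zfp973 are near copies of each other on chromosome 2, where reads may map to more than 1 place. Uncharacterised transmembrane and coiled-coil genes gave 38 of 505 (7.52%), ubiquitin ligase adaptors 10 of 162 (6.17%), mitochondrial ribosome genes 4 of 76 (5.26%), and DNA repair genes 4 of 81 (4.94%), namely Rev1, Ercc2, Fancf and Fanca. Germ line and meiosis genes gave 3 of 22 (Stag3, Spata32 and Meiob) and glycosylation genes 4 of 44, with B4galt4, B4galt5, B4galt6 and Pigt. Solute carriers gave 5 of 167 (2.99%), histones 1 of 41 (Hist1h4f), genes of tRNA charging and modification 1 of 55 (Trmt10b) and the respiratory chain 1 of 106 (Cox7b). No peroxisome (Pex), protocadherin or olfactory receptor gene was a member. Only 16, 3 and 1 of their promoters met the conditions on H3K4me3 and H3K27me3, too few for the absence to mean much. All 20 adipocyte markers had H3K27ac in 9 of 9 controls.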

How the data were processed

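H3K4me3, H3K27ac, H3K27me3 and H3K4me1 were measured by CUT&Tag in 84 libraries of labelled adipocyte nuclei. According to the methods and processing notes, the authors trimmed reads (Trim Galore 0.6.6), aligned them to GRCm38 (Bowtie2 2.4.4), marked duplicates, made coverage with bedtools 2.30 and called peaks per library with SEACR 1.3 (stringent, threshold 0.01), with no control track stated. The deposited files list peaks with their total and highest signal, which is unscaled coverage and cannot be compared between libraries, so presence of a peak was used, and signal only within a library for ranks and for the alternatives that keep the strongest peaks. Blacklisted regions were not removed here. Read totals were not used, so precision rests on the number of libraries.

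Start sites were those of protein-coding transcripts of the GENCODE vM21 basic set (41438 sites, 21851 genes). The deposited lists and the annotation share build GRCm38. A promoter was marked when at least 1 bp of a peak lay within 2000 bp of a start site. A gene with several start sites counted as marked when any window was. Groups came from the sample titles. In 4 H3K4me3 libraries (1 of CC_l, 1 of CCC and both of HH) title and treatment field disagree on the group; the title was used, and the field was run as an alternative.

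Shares of promoters marked were compared with exact permutation tests over libraries, two-sided, with labels permuted within each cohort and the difference averaged over cohorts (threshold 0.05, Benjamini-Hochberg over 12 tests). Sets from 1 cohort needed H3K4me3 in at least 5 of 6 (12-week) or 4 of 4 (25-week) controls, H3K27ac in none and H3K27me3 in at most 1. Named genes were up to 12 members with H3K27ac in the most diet libraries, 6 with H3K4me3 in the fewest, 4 with H3K27me3 in the most, 6 with the strongest control H3K4me3 among those with H3K27ac in no library, and 4 with the largest excess of H3K4me1 in diet libraries, with ties in genomic order. Results for 2 of these genes are not reported here. Genes named beside counts of 7 or fewer, the motifs other than TATAAA, the family members and the printed promoters were chosen after their values were seen. Members and lists were chosen with earlier results of these data known. The tests were checked on simulated data. Alternatives changed the number of peaks, the overlap, the window, the membership thresholds, shared windows, the group labels, the replicates and the pairing. Sequences came from RefSeq (GRCm38.p6) and the genome, read with pysam 0.24.0 and samtools 1.23.1, and other computation used Python 3.11.15, numpy 2.4.6 and pandas 2.3.3.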

Additional observations from a re-analysis of the deposited data

How the results depend on the processing

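Of the 12 tests and 17 counts, all 29 kept their direction and side of the threshold when the treatment field set the groups, and the 12 tests did so without shared windows. The exact permutation p of 0.04 for H3K27ac in WL minus control in the other cohort's set rose to 0.06 with equal numbers of peaks (6.73 points), the upper 50% of peaks (13.8), an overlap of 500 bp (21.8), a window of 500 bp (20.4) and relative to all promoters (13.1). The H3K4me1 difference of WL minus control at the members, whose controls were not independent of the rule, moved as well. Its exact permutation p was 0.03 in the main run (13.4 points). It was 0.06 with the 500 bp window (9.35 points), 0.10 with stricter membership (13.5) and 0.15 relative to all promoters (6.40). With equal numbers of peaks it was 0.01 (4.98 points), and with the upper 50% it was 0.02 (6.06). H3K27me3 in WL minus control fell to 5.37 points with an overlap of 500 bp (exact permutation p = 0.14). Obese minus control in H3K4me1 at the members was 2.36 points with equal numbers of peaks and 2.68 with the upper 50%. Its exact permutation p, 0.06 in the main run (6.66 points), was 0.03 and 0.01 in these settings. Since the H3K4me1 controls were not independent of the rule, these p are no test against controls. Obese minus control in H3K4me3 passed the threshold relative to all promoters (-15.6 points, exact permutation p = 0.0167). WL minus obese in H3K27me3 changed sign with stricter membership (0.278 points, exact permutation p = 0.98). The cause of these changes was not tested.

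Replicate numbers of different groups name different animals. With the replicate block, WL minus control was 18.7 points for H3K27ac (exact permutation p = 0.125), 9.82 for H3K27me3 (p = 0.0625) and 16.5 for H3K4me1. These p are the smallest the pairs allow, and only WL minus obese in H3K27ac and H3K4me1 had enough pairs to go below 0.05, so that the block says nothing about the stability of the other calls.

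With equal numbers of peaks 2689 promoters met the rule, with the upper 50% 1168 and with stricter thresholds 60. With equal numbers, H3K27ac was gained at 1 member in HH, 1 in HHC and 0 in HC, and H3K4me3 was lost at 35 in H, 6 in HC, 18 in HH and 6 in HHC. HC and H differed at 12 members in H3K4me3 and 0 in H3K4me1, and HHC and HH at 13 in H3K4me3, 0 in H3K27ac, 1 in H3K27me3 and 0 in H3K4me1. With the upper 50%, H3K27ac was gained at 0 members in H, 0 in HC, 2 in HH and 8 in HHC, H3K4me3 was lost at 71 in H and 1 in HH, HC and H differed at 8 in H3K4me3 and 0 in H3K4me1, and HHC and HH at 1 in H3K4me3, 3 in H3K27ac and 0 in H3K4me1. With an overlap of 500 bp, H3K27ac was gained at 0 in H and 0 in HC, H3K4me3 was lost at 1 in HC, and HC and H differed at 1 in H3K4me3, 2 in H3K27me3 and 0 in H3K4me1. With the 500 bp window, H3K27ac was gained at 2 in HC, HC and H differed at 0 in H3K4me1, and HHC and HH at 4. With stricter thresholds, H3K27ac was gained at 0 in H, HC and HH and 8 in HHC, H3K4me3 was lost at 0 in H, HC and H differed at 0 in H3K4me3, H3K27me3 and H3K4me1, and HHC and HH at 1 in H3K27ac, 0 in H3K27me3 and 2 in H3K4me1.

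Leaving out 1 library at a time, WL minus control ranged from 8.71 to 37.2 points in H3K27ac (9 of 10 lost the unadjusted call), 5.79 to 9.82 in H3K27me3 (lost without CCC replicate 3) and 9.19 to 16.5 in H3K4me1, and from 4.36 to 17.5 in H3K4me3. For H3K27ac, a library left out of CCC, or of CC_s with as many libraries, made the smallest possible p 0.05. Those losses were therefore fixed in advance. Without HHC replicate 1, 2 or 3, where p could go lower, the exact permutation p was 0.0667. Obese minus control ranged from -6.21 to 8.94 in H3K27ac, changing sign without HH replicate 1 or CC_l replicate 2, from -24.2 to -10.7 in H3K4me3, 3.35 to 9.72 in H3K27me3 and 2.80 to 9.12 in H3K4me1. WL minus obese ranged from 5.54 to 20.7 in H3K27ac, -1.19 to 11.7 in H3K4me3, -4.39 to 0.301 in H3K27me3 and 2.17 to 10.2 in H3K4me1. Counts rose because fewer libraries had to satisfy the rule. H3K27ac gained ranged from 1 to 21 members in H, 1 to 27 in HC, 22 to 60 in HH and 88 to 166 in HHC, and H3K4me3 lost from 12 to 39 in H, 0 to 2 in HC and 0 to 0 in HH and HHC. Members differing between HC and H ranged from 0 to 10 in H3K27ac, 4 to 21 in H3K4me3, 7 to 23 in H3K27me3 and 1 to 4 in H3K4me1, and between HHC and HH from 10 to 49, 0 to 0, 5 to 20 and 11 to 31.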
